A study of Mus musculus with 4 samples.

Results

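The data describe 6 listed mature arms of the miRNAs best known from striated muscle in the main olfactory epithelium of mice: mmu-miR-1a-3p, mmu-miR-1b-5p, mmu-miR-133a-3p, mmu-miR-133a-5p, mmu-miR-133b-3p and mmu-miR-206-3p. The arms were taken by name from a table of 1167 miRNAs, in which all 6 had a row. The rows of miR-1b-5p and miR-1a-3p hold the same reads, so 5 members are counted. The tissue is the sheet of olfactory sensory neurons, supporting cells and basal cells at the back of the nose. 2 small RNA libraries came from AC3-/- mice, which lack adenylyl cyclase 3, the enzyme that makes cAMP in the cilia of olfactory sensory neurons after an odorant binds its receptor. The other 2 libraries came from wild-type (WT) mice. All 4 came from C57BL/6 males, 3 months of age. The labels give no design of the AC3 allele and no word on whether the libraries of a genotype stand for different mice, so every p-value measures the spread between libraries, which may be technical.

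miR-1 and miR-133 are made in heart and skeletal muscle, where they are transcribed together under the muscle factors MyoD, MEF2 and SRF. miR-1 favours the differentiation of muscle cells, while miR-133 favours the proliferation of myoblasts and restrains SRF. miR-206 and miR-133b form a further pair that belongs to skeletal muscle, and miR-206 is known for its part in muscle regeneration and in the repair of the nerve-muscle junction. The labels name the epithelium as the tissue and no muscle. In bulk tissue, fewer muscle cells and less RNA per muscle cell cannot be told apart.

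RefSeq (GRCm38.p6) gave the mature sequence of 2 of the 6 arms. They are printed with the seed, bases 2 to 8, in capitals, because the seed sets which mRNAs a miRNA pairs with and differs between the miR-1 and the miR-133 families. miR-206 is known to share its seed with miR-1, and miR-133b is known as a near-identical relative of miR-133a.
miR-206-3p: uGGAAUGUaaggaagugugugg
miR-133b-3p: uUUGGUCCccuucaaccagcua
The seeds of these arms match at 1 of 7 positions. The miRNAs of the myosin heavy chain genes are shown with them, because they mark heart and slow fibres in the results further on.
miR-499-5p: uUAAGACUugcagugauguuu
miR-208b-3p: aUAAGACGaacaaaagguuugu
miR-208a-3p: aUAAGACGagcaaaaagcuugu
miR-208a-3p and miR-208b-3p share all 7 seed bases, and miR-499-5p shares 6 of 7 with miR-208b-3p. Mir208a lies in an intron of Myh6, Mir208b in an intron of Myh7 and Mir499 in an intron of Myh7b, each on the strand of its host gene.

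The levels are normalised read counts, that is, reads divided by a size factor for each library. The authors' deposited table gives the mean of the 2 libraries of a genotype, and the reads of each library were worked back from these means. The libraries are called AC3-/- a, AC3-/- b, WT a and WT b, and the letters stand for no replicate number of the labels. The size factor was 1.148 for AC3-/- a, 1.099 for AC3-/- b, 0.9411 for WT a and 0.8551 for WT b. Intervals on single libraries are exact Poisson 95% intervals and cover counting error only, since PCR copies of a molecule are counted apart. For a count of 0 the upper limit is instead set at 3 reads everywhere, in the figures too.

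miR-1a-3p made up nearly all of the muscle signal and had its 2 lowest normalised values in the AC3-/- libraries. It had 6276 normalised reads in AC3-/- a and 4241 in AC3-/- b, against 6396 in WT a and 6723 in WT b. By these values the genotypes did not overlap, but AC3-/- a lay close to WT a, with intervals of 6132 to 6422 and 6235 to 6559. AC3-/- b, at 4120 to 4364, lay below the other 3 by more than counting error. The place of AC3-/- a below WT rests on the size factors. Before scaling it had the most reads, 7204, against 6019 in WT a, 5749 in WT b and 4659 in AC3-/- b. All reads worked back, which leave out dominant miRNAs, came to 692152 in AC3-/- a and 699983 in WT a. The mean was 5258 ± 1439 in AC3-/- and 6559 ± 231 in WT (SD, n = 2 each), a ratio of 0.802. Of 446 miRNAs with library values and an overall mean of 10 or more, 17.0% had both AC3-/- libraries below both WT libraries, and miR-1a-3p did so as 1 of the 4 members among them. limma gave a log2 difference of -0.35 (SE 0.27, 95% interval -1.02 to 0.33). Its adjusted p over the 446 was 0.932, so the difference did not pass the test.

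miR-133a-3p, the partner of miR-1a on both transcripts, had fewer reads and overlapping genotypes. It had 243.9 normalised reads in AC3-/- a and 148.4 in AC3-/- b, against 203.0 in WT a and 259.6 in WT b. AC3-/- b was again the lowest, and AC3-/- a lay between the WT libraries. The log2 difference was -0.27 (SE 0.40, 95% interval -1.28 to 0.74, limma adjusted p = 0.932). Its passenger arm miR-133a-5p was scarce, with 8 reads in AC3-/- a and 3 in AC3-/- b, against 3 in WT a and 4 in WT b. It was the 1 member with a higher AC3-/- mean, 4.850 normalised reads against 3.933 in WT, and the intervals of all 4 libraries overlapped. With a mean under 10 it was not in the limma fit.

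miR-133b-3p, from the skeletal-muscle locus, had AC3-/- b as its lowest library too. It had 16.55 normalised reads in AC3-/- a and 4.551 in AC3-/- b (19 and 5 reads), against 10.63 in WT a and 14.03 in WT b (10 and 12 reads). AC3-/- a was the highest, so the genotypes overlapped. The log2 difference was -0.42 (SE 0.73, 95% interval -2.25 to 1.41, limma adjusted p = 0.932). The near-identical and more abundant miR-133a-3p may share reads with it, which the deposited values do not resolve, so its level is uncertain.

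miR-206-3p, from the same locus, varied most between libraries. It had 17.42 normalised reads in AC3-/- a and 0 in AC3-/- b (20 and 0 reads), against 4.250 in WT a and 28.07 in WT b (4 and 24 reads). Each genotype thus held a high and a low library. In AC3-/- b the count of 0 allows up to 2.73 normalised reads (3 reads). The interval of WT b, 18.0 to 41.8, lay above that of WT a, 1.16 to 10.9, so the libraries of 1 genotype differed by more than counting error. The log2 difference was -1.53 (SE 1.60, 95% interval -5.53 to 2.48, limma adjusted p = 0.932). The mean was 8.711 in AC3-/- and 16.16 in WT, and the row entered the fit through its WT mean.

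**Figure D1:**
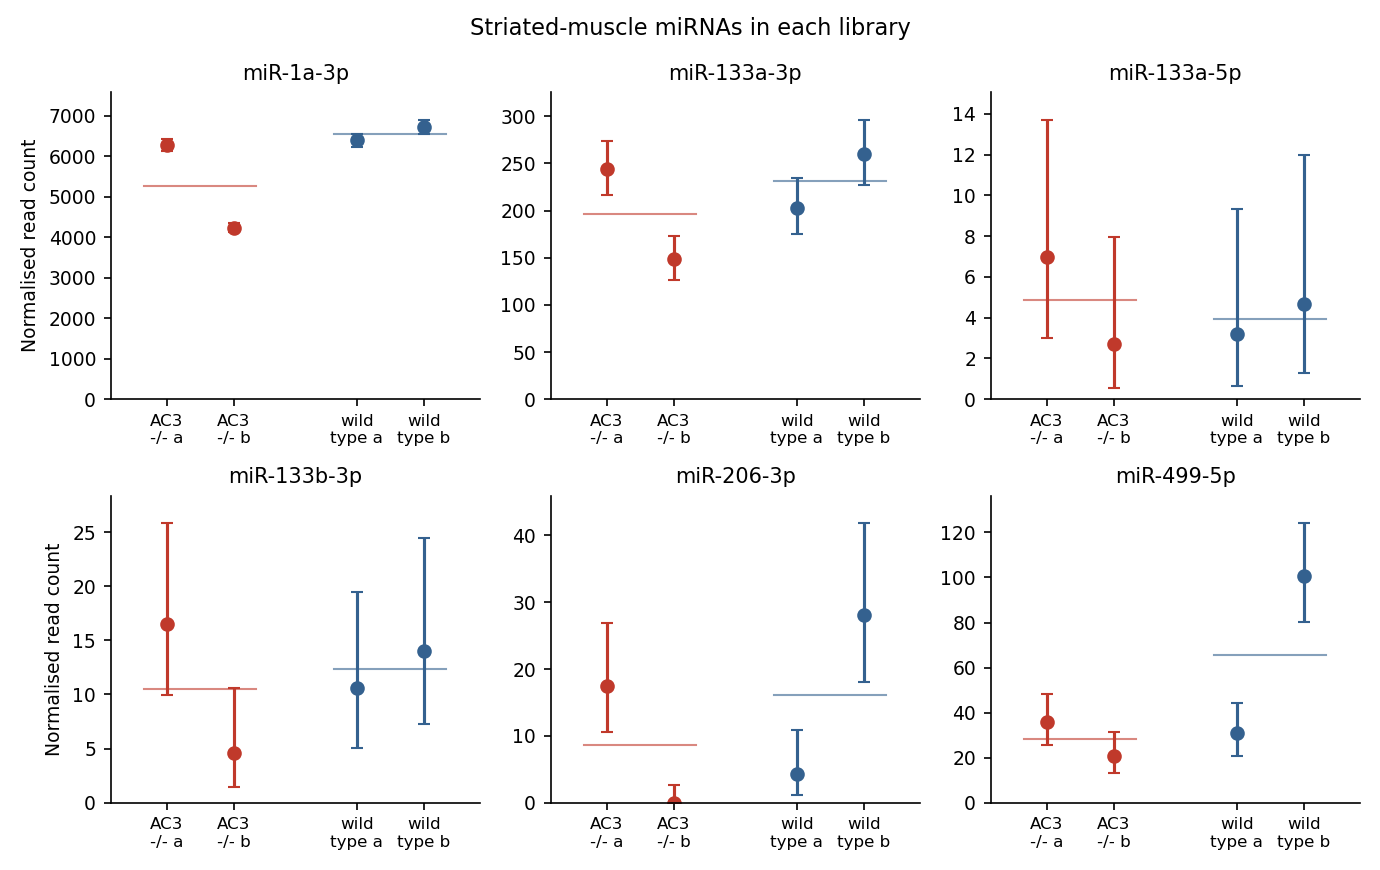
Normalised read count (vertical axis, linear from 0) of each counted member and of miR-499-5p in the 2 AC3-/- libraries and the 2 WT libraries; points are libraries, bars are exact Poisson 95% intervals and horizontal lines are genotype means. AC3-/- b is the lowest point in every panel, and miR-206-3p reaches 17.42 in AC3-/- a and 28.07 in WT b but 0 and 4.250 in their partners.

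No member passed the test between genotypes. In the authors' deposited table, 0.0857% of the 1167 rows had an adjusted p under 0.05, and 3.51% had an unadjusted p under 0.05. Neither threshold was passed by any of the 5 members. The authors' deposited table gives miR-1a-3p a log2 fold change of -0.28 (adjusted p = 0.9395), miR-133a-3p -0.20 (adjusted p = 0.9441) and miR-206-3p -0.21 (adjusted p = 0.9444). It was -0.12 for miR-133b-3p and 0.14 for miR-133a-5p in the authors' deposited table (adjusted p = 0.979 for each). Of the 5, 4 lay below 0, against 50.5% of all rows, and their median of -0.20 stood beside -0.01 over all rows. These fold changes are shrunken toward 0. For miR-206-3p the log2 ratio of the deposited means was -0.89, where the authors' deposited table gives -0.21. In the limma fit 0 of 4 members passed, nor did any of the 446 miRNAs (0.00%); 18 of these (4.04%) and no member had an unadjusted p under 0.05. Without WT a 64 of the 446 passed, none of them a member.

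The sign of the small difference depended on what the reads were scaled to. The 5 members summed to 5479 normalised reads in AC3-/- and 6823 in WT, and miR-1a-3p gave 95.6% to 96.7% of the sum in each library. As a share of all normalised reads, the sums were 0.0627% in AC3-/- and 0.0554% in WT. The share of miR-1a-3p alone was 0.0602% in AC3-/- and 0.0532% in WT, and that of miR-133a-3p was 0.00224% and 0.00188%. The totals differed, 8739148 in AC3-/- and 12320877 in WT, so scaling to them moves every row by 0.50 on the log2 scale. By share, 4 of the 5 members lay above 0, with miR-206-3p at -0.40 as the exception. Their median was 0.26, against 0.44 over the 882 rows with reads in both genotypes, so relative to that shift they lay slightly lower in AC3-/-. The sensory-organ cluster of miR-183, miR-96 and miR-182 and the miR-200 family, 16 rows, took 20.97% of the reads in AC3-/- and 44.34% in WT. The WT libraries differed in this cluster. Its 3 scarce arms with library values summed to 1318 in WT a and 6309 in WT b, against 1374 in AC3-/- a and 659.9 in AC3-/- b. Leaving out the 16 rows was chosen after seeing the data. Without these rows the totals were 6906518 in AC3-/- and 6857379 in WT, and the members' share was 0.0793% in AC3-/- and 0.0995% in WT.

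**Figure D2:**
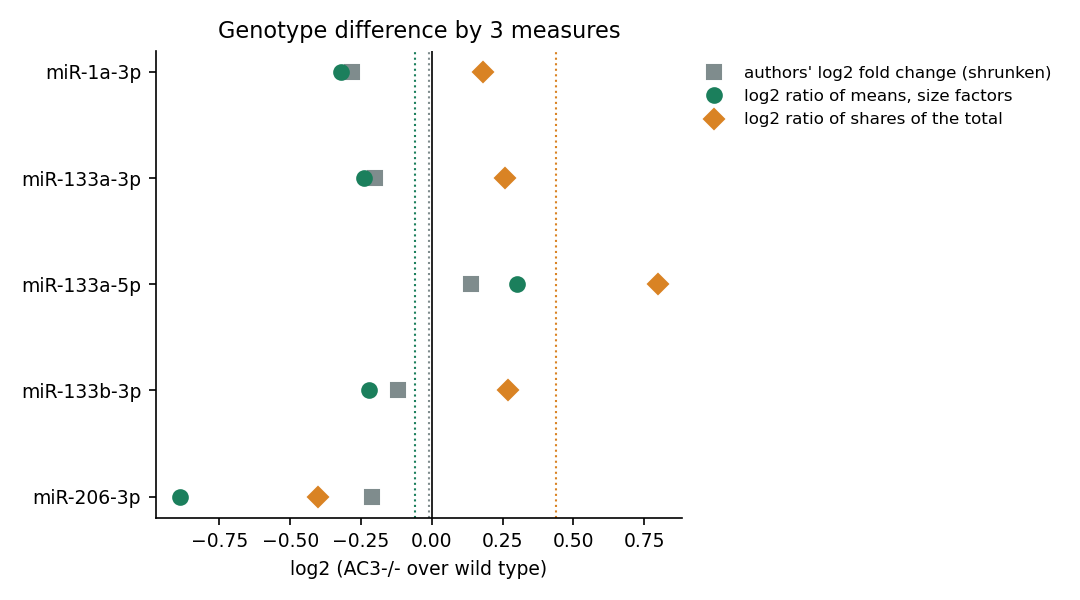
log2 of AC3-/- over WT (horizontal axis) for the 5 counted members by the authors' shrunken fold change, by the ratio of the deposited means, and by the ratio of their shares of the genotype total; dotted lines are the medians over all rows in the matching colours. By the ratio of means miR-1a-3p, miR-133a-3p and miR-133b-3p lie at -0.32, -0.24 and -0.22, and by share at 0.18, 0.26 and 0.27, left of the all-row median of 0.44.

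The ratio of miR-133a-3p to miR-1a-3p varied less between libraries than that of miR-206-3p. Ligation and PCR favour some sequences, so such a ratio is no ratio of molecules, but it can be compared between libraries. miR-133a-3p had 3.89 reads per 100 reads of miR-1a-3p in AC3-/- a and 3.50 in AC3-/- b, against 3.17 in WT a and 3.86 in WT b. The 4 intervals shared the range from 3.44 to 3.66. No test was run between libraries, and such an overlap does not show the ratios to be equal. miR-133b-3p had 6.79 reads per 100 of miR-133a-3p in AC3-/- a and 3.07 in AC3-/- b, against 5.24 in WT a and 5.41 in WT b, again with overlapping intervals. miR-206-3p had 27.8 reads per 10000 of miR-1a-3p in AC3-/- a and 0 in AC3-/- b, against 6.65 in WT a and 41.7 in WT b. The interval of WT b, 26.7 to 62.1, lay above those of WT a, 1.81 to 17.0, and of AC3-/- b, where 0 reads allow up to 6.44.

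miR-499-5p, which belongs to heart and slow skeletal fibres, was high in WT b alone. It had 35.72 normalised reads in AC3-/- a and 20.94 in AC3-/- b, against 30.81 in WT a and 100.6 in WT b. WT b was 3.26-fold above its partner, and the 3 other libraries had overlapping intervals. Per 10000 reads of miR-1a-3p it had 56.9 in AC3-/- a and 49.4 in AC3-/- b, against 48.2 in WT a and 150 in WT b. The authors' deposited table gives it a log2 fold change of -0.75 with an adjusted p of 0.9395. miR-208b-3p, from the slow and cardiac myosin gene Myh7, was scarce, with 7 reads in AC3-/- a and 6 in AC3-/- b, against 3 in WT a and 6 in WT b. miR-208a-3p, the marker of adult heart muscle, had 1 read in each AC3-/- library and 0 in each WT library, where 0 reads allow up to 3.19 normalised reads in WT a and 3.51 in WT b. All 4 libraries were at or under that floor, so no fold is given.

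**Figure D3:**
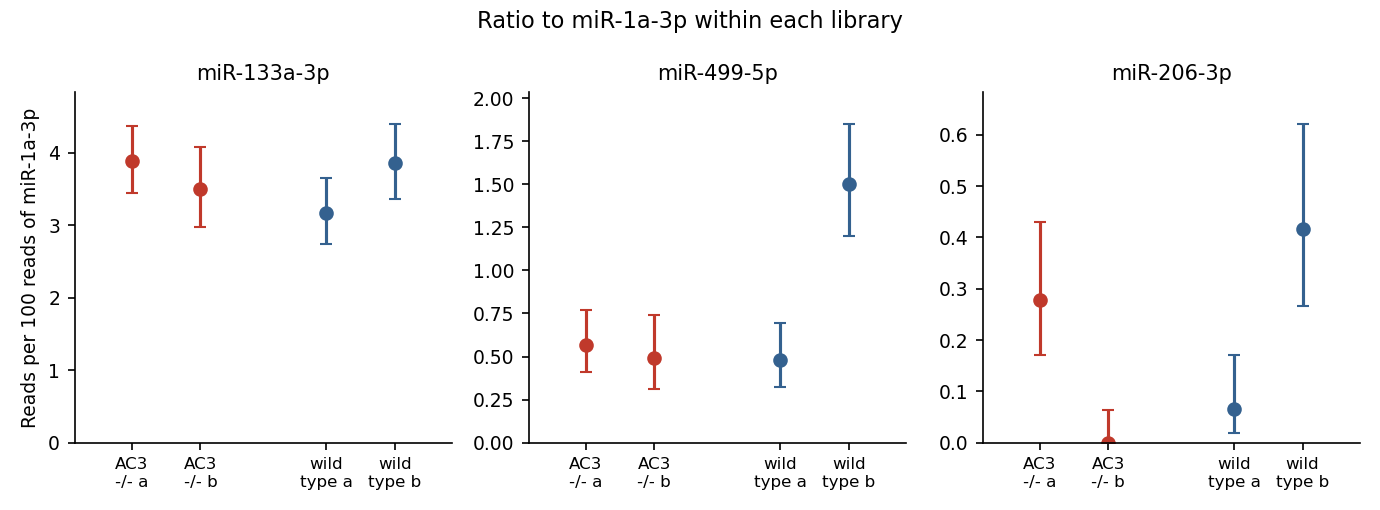
Reads of miR-133a-3p, miR-499-5p and miR-206-3p per 100 reads of miR-1a-3p (vertical axes from 0, each with its own scale) in the 2 AC3-/- and the 2 WT libraries, with exact Poisson 95% intervals on the numerator. miR-133a-3p lies between 3.17 and 3.89 throughout, miR-499-5p is high in WT b and at 0.569 or less elsewhere, and miR-206-3p is high in AC3-/- a and WT b.

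Of the 10 miRNA arms listed as otherwise linked to muscle, 7 had a row, and 0 of 7 passed the adjusted p in either direction (0.0857% of all rows). The authors' deposited table puts 5 of them below 0 and 2 above, with a median log2 fold change of -0.10. The abundant ones are made in many tissues. The authors' deposited table gives miR-378a-3p, known for its part in energy metabolism, means of 42672 in AC3-/- and 57154 in WT (log2 fold change -0.38). miR-486a-5p, also abundant in red blood cells, had means of 613.4 in AC3-/- and 670.2 in WT in the authors' deposited table. The smooth-muscle miRNAs miR-143 and miR-145a had far higher read counts, and 3 of their 4 arms had the higher mean in AC3-/-, with miR-145a-3p (log2 -0.28 by the authors' deposited table) as the exception. The authors' deposited table gives miR-143-3p means of 474412 in AC3-/- and 408720 in WT (log2 fold change 0.19), and miR-145a-5p 15324 and 11793 (0.34). None of these differences passed the test.

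AC3-/- b was the lowest library for each of the 5 members, and it was the lowest for 24.9% of the 446 miRNAs. miR-133a-5p is not among the 446. It had 3 reads in both AC3-/- b and WT a, so its order there rests on the size factors. The members summed to 6561 normalised reads in AC3-/- a and 4396 in AC3-/- b, and to 6617 in WT a and 7029 in WT b. The log2 ratio of b to a was thus -0.58 within AC3-/- and 0.09 within WT. These sums are nearly all miR-1a-3p, and the WT pair was far apart for miR-206-3p (6.60-fold, b over a) and for miR-499-5p (3.26-fold). Of the 446 miRNAs, 5.83% were at least 2-fold apart within AC3-/- and 25.6% within WT. The miR-183 cluster marks sensory neurons. Of its 6 arms, only miR-183-3p, miR-182-3p and miR-96-3p have library values, and the far more abundant 5p arms have none. These 3 arms summed to 1374 normalised reads in AC3-/- a and 659.9 in AC3-/- b, against 1318 in WT a and 6309 in WT b. miR-34b, miR-34c and miR-449 mark multiciliated cells. Without the dominant miR-34c-5p, which has no library values, their 6 of 7 arms summed to 13840 in AC3-/- a and 26208 in AC3-/- b, against 30581 in WT a and 5971 in WT b. The 4 leukocyte miRNAs, such as miR-142a and miR-223, summed to 12839 in AC3-/- a and 15884 in AC3-/- b, against 15270 in WT a and 4855 in WT b. By these sums, the scarce miR-183 cluster arms and the muscle members were lower in AC3-/- b than in AC3-/- a. The multiciliated and leukocyte sums were higher in AC3-/- b. The 3 red blood cell arms were also lower there, at 5491 in AC3-/- a and 4265 in AC3-/- b, against 4939 in WT a and 2673 in WT b. The 6 of 7 other muscle-linked arms, without the dominant miR-378a-3p, had a lower sum in AC3-/- b. Their log2 ratio of b to a was -0.40 within AC3-/- and -0.20 within WT. Most of their sum is miR-486a-5p, also abundant in red blood cells, at 733.5 in AC3-/- a and 493.4 in AC3-/- b. miR-378a-5p was nearly level, at 320.6 in AC3-/- a and 311.3 in AC3-/- b, while miR-499-5p was lower in AC3-/- b, at 35.72 and 20.94. Smooth muscle, by 3 of 4 arms without the dominant miR-143-3p, was at -0.08 within AC3-/-. Endothelium, mesenchyme and cartilage each rest on 1 less abundant arm, miR-126a-5p at 0.09, miR-214-3p at 0.47 and miR-140-5p at -0.03, since their dominant arms have no library values in AC3-/-. None of the miRNAs on these lists passed the adjusted p between genotypes. Of the 6 miR-183 cluster arms, 3 had an unadjusted p under 0.05 by the authors' deposited table, against 3.51% of all rows. By genotype mean all 6 were lower in AC3-/-, but the 3 arms with library values were high in WT b alone. WT a lay below AC3-/- a for miR-183-3p (272.0 against 399.0) and miR-96-3p (89.26 against 95.83). For miR-182-3p it lay above, at 956.3 against 879.0. The part of the other listed cell types in the muscle values was not tested.

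**Figure D4:**
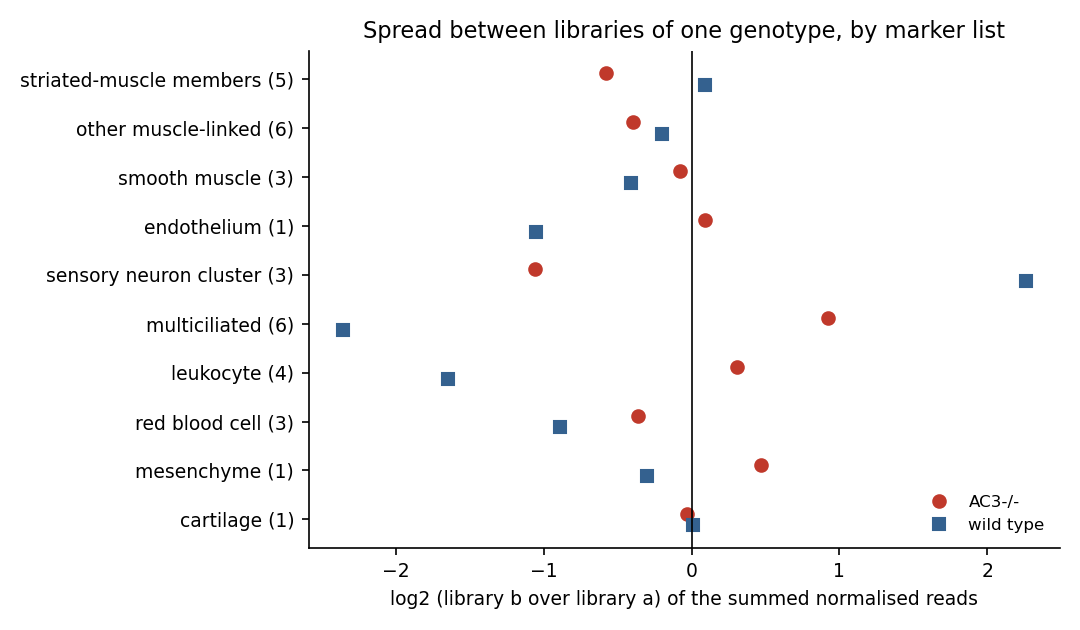
log2 of library b over library a of the summed normalised reads (horizontal axis) within AC3-/- (circles) and within WT (squares) for the muscle members and each marker list; numbers in brackets count the miRNAs with library values. The muscle members lie at -0.58 in AC3-/- and 0.09 in WT, while in WT the miR-183 cluster, multiciliated and leukocyte lists reach 2.26, -2.36 and -1.65. The miR-183 cluster and multiciliated sums lack their most abundant arms.

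Likeness to the members was measured over the 4 libraries as the root mean square distance between log2(value + 1) profiles, each centred on its own mean. The members' mean profile was 0.58 in AC3-/- a, -1.06 in AC3-/- b, -0.13 in WT a and 0.61 in WT b. The scarce miR-206-3p carried much of it, with -2.86 in AC3-/- b, where it had 0 reads, against -0.46 for miR-1a-3p, -0.49 for miR-133a-3p and -0.47 for miR-133a-5p. Of the members, miR-133b-3p lay nearest to the mean profile, at 0.13, and miR-206-3p farthest, at 1.21. Each member is part of that mean, which shortens its own distance but not that of other miRNAs. miR-1a-3p, the most abundant member, lay at 0.45, farther away than the 5 miRNAs named next. Among 247 other miRNAs with a mean of 100 or more, distances ran from 0.40 to 2.07 with a median of 0.75. The 5 nearest were miR-101c (0.40), miR-224-5p (0.41), miR-181d-5p (0.43), miR-122b-3p (0.43) and miR-122-5p (0.43). miR-122b-3p and miR-122-5p had equal values in every library and count the same reads. miR-122-5p, a miRNA of liver cells, had 221.3 normalised reads in AC3-/- a and 152.9 in AC3-/- b, against 261.4 in WT a and 320.4 in WT b. With 4 libraries, such a likeness is a description and carries no test.

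The hairpins lie in pairs in the mouse genome (GRCm38, GENCODE annotation), and their layout bears on what a read can tell. Mir206 lies on chromosome 1 from 20679010 to 20679082 and Mir133b from 20682769 to 20682887, both in exons of the long noncoding RNA Gm28653 on the plus strand. Mir1a-1 lies on chromosome 2 from 180389048 to 180389124 and Mir133a-2 from 180398379 to 180398482, both on the plus strand, 9254 bases apart and outside other annotated genes. Mir1a-2 lies on chromosome 18 from 10785481 to 10785552 and Mir133a-1 from 10782909 to 10782976, both on the minus strand, in an intron of the noncoding host gene Mir133a-1hg and opposite an intron of the protein-coding gene Mib1. Since miR-1a-3p and miR-133a-3p each come from 2 hairpins, their reads do not tell the chromosome 2 copy from the chromosome 18 copy.

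miR-1b-5p and miR-1a-3p were not separate measurements. miR-1a-3p had 7204 reads in AC3-/- a and 4659 in AC3-/- b, against 6019 in WT a and 5749 in WT b. miR-1b-5p had 7203 reads in AC3-/- a and 4652 in AC3-/- b, against 6011 in WT a and 5738 in WT b, so the rows differed by 1 to 11 reads. The Mir1b hairpin lies on the plus strand of chromosome 18 from 10785446 to 10785567 and holds the whole of Mir1a-2 on the opposite strand. The opposite arms of these hairpins, miR-1a-2-5p and miR-1b-3p, also had equal reads, 0 in AC3-/- a and 2 in AC3-/- b, against 4 in each WT library. Neither pair can be split by strand in this table.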

How the data were processed

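Small RNA from 4 libraries was sequenced, 2 AC3-/- and 2 wild type (WT). The authors used Bowtie, DESeq 1.8.3 and GRCm38, per the submitters' processing notes. How reads were counted, with which miRBase release and filters, is not stated in those notes. The authors deposited 1 table with a signal per genotype (the mean normalised read count over its libraries), a log2 fold change, AC3-/- over WT, and p-values. Its adjusted p equals a Benjamini-Hochberg adjustment over all 1167 rows within 1%.

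A deposited mean is the sum of whole reads of the 2 libraries, each times a fixed step, so reads were worked back where 1 solution exists: 1122 rows (96.1%) for AC3-/- and 1124 (96.3%) for WT, all 6 members included. The method was checked on simulated tables. limma (version 3.58.1, R 4.3.3) with an intensity trend and Benjamini-Hochberg adjustment was run on log2(normalised value + 1) for the 446 miRNAs whose overall mean reached 10; the added 1 makes changes of scarce miRNAs look smaller. No count model was used, since reads were inferred from means. The main result is the authors' deposited table at an adjusted p of 0.05.

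The members, lists and tests were chosen with earlier results of these data known. Members, sister arms, muscle-linked miRNAs, the 5 nearest profiles and at most 2 markers per list were named by rule. Sequences are from RefSeq and loci from GENCODE.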

Additional observations from a re-analysis of the deposited data

How the results depend on the processing

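No member passed the adjusted p of 0.05 under any alternative run: rows with a mean of at least 10 or 100, both miR-1 rows counted, limma with pseudocounts of 0.5 and 5, without a filter, with a mean of at least 100, scaled to the recovered total, or without any 1 library. The lowest adjusted p of a member was 0.159, for miR-206-3p without WT a, where 64 of 446 miRNAs passed and the lone WT library was assumed to vary like the AC3-/- pair. Without AC3-/- b the log2 differences of miR-133a-3p, miR-133b-3p and miR-206-3p turned to 0.09, 0.41 and 0.58. With each library left out in turn they ranged from -0.63 to 0.09, -1.25 to 0.41 and -3.63 to 0.58, and that of miR-1a-3p from -0.63 to -0.06. The members' median log2 fold change of -0.20 was -0.24 without shrinkage, 0.26 by share of the total, and -0.64 to 0.10 with a library left out. The log2 ratio of the summed share, 0.18, was -0.32 with the authors' size factors, -0.33 as a share without the miR-183 cluster and the miR-200 rows (chosen after seeing the data), and -0.63 to -0.06 by size factors with a library left out, the last without AC3-/- b; the scales differ by the shift in totals. No paired analysis was possible because the recovered libraries carry no replicate number. Depth limits miR-133a-5p, miR-133b-3p, miR-206-3p, miR-208a-3p and miR-208b-3p, with 0 to 24 reads per library.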
